A study of Mus musculus with 2 samples.

Results

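The class III POU genes Pou3f1, Pou3f2, Pou3f3 and Pou3f4 and the zinc finger genes Zic1, Zic2, Zic4 and Zic5 were examined for accessible chromatin in mouse neural progenitors. ATAC-seq uses a transposase, Tn5, that inserts adapters where DNA is open, and the inserted fragments are sequenced and counted. An accessible interval was assigned to a gene when the start of that gene was the nearest transcription start site (TSS) of any protein-coding gene in the GENCODE annotation of mm10. Of 119502 intervals, 115 belonged to these 8 genes, 77 to the Pou3f genes and 38 to the Zic genes. The assignment of intervals used positions only and no measured value.

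The cells were live neural progenitors (NPs) from a mouse embryonic stem (ES) cell line, Olig2-mKate2, in which a red fluorescent protein is produced from the Olig2 gene. They were differentiated with bFGF and LGK, then with bFGF, CHIR99021, SB-431542 and DMH1, and finally with 100 nM retinoic acid (RA) and 100 nM of the Sonic hedgehog agonist SAG, and sorted for mKate2 at day 5. There were 2 replicates in 1 group, each from 50000 cells, so no conditions were compared. Nothing in the labels says that the replicates came from separate differentiations, and the spread between them may be technical. Sorting on the reporter also retains newly born motor neurons and some cells that have begun to express the more ventral factor NKX2.2, and in such a bulk sample fewer open cells cannot be told apart from a less open site in every cell.

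Class III POU factors are DNA-binding proteins of the early nervous system, encoded by genes without introns. They pair a POU-specific domain with a homeodomain, bind the octamer motif, and often act beside Sox factors on neural enhancers. Pou3f1 (also Oct6) is known from neural induction and from Schwann cells, Pou3f2 (Brn2) and Pou3f3 (Brn1) from neural progenitors and cortical neurons, and Pou3f4 (Brn4) from the neural tube and the inner ear. Zic factors bind DNA through zinc fingers related to those of the Gli proteins, which carry Hedgehog signals, and are best known from the neural plate border, the dorsal neural tube and the cerebellum. Zic genes lie in pairs with opposite orientation, Zic1 beside Zic4 and Zic2 beside Zic5.

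The 2 libraries held 31876165 and 31672240 counts in intervals, of which 43232 and 43050 fell in the 115 intervals. Promoters of marker genes were then listed. The intervals were built over 5 libraries, so whether one covers a start does not check the labels of these 2. All 5 genes of the progenitor list (Olig2, Nkx6-1, Pax6, Sox1 and Sox2) had an interval over their start, against 0 of 3 liver genes, 0 of 3 blood genes, 1 of 3 pluripotency genes, 1 of 3 skeletal muscle genes and 2 of 3 fibroblast genes. An open promoter shows accessibility and not expression. All values below are counts, counts scaled by library size factors (normalised counts), or densities, which are normalised counts per kb of interval. By density the marker lists overlapped. Pax6 had 186.5 ± 3.57, below Zfp42 of the pluripotency list (237 ± 4.87) and Twist2 of the fibroblast list (291 ± 8.38; SD, n = 2). Olig2, Nkx6-1, Sox1 and Sox2 lay above both, from 862 at Sox2 to 1498.5 at Sox1. These densities are for the interval over the outermost annotated start, and other starts of the marker genes were not examined. Pax6 had 19 intervals in all, of which 11 had a mean normalised count over 100.

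All 8 genes had an interval over their start, against 61.5% of all 21938 protein-coding genes. The promoters were moderately accessible. Their densities ran from 503 ± 1.82 normalised counts per kb at Pou3f4 to 959 ± 15.7 at Pou3f2 (SD, n = 2), and the median over the 13500 genes with such an interval was 884. Pou3f2 alone lay above that median. The intervals were long, with a median of 2675 bp against 1229 bp for all TSS intervals. Density divides the counts by this length, and the part of length in these ranks was not tested.

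At Pou3f2, the TSS interval (chr4:22487451-22492019) had 4429 counts in replicate 1 and 4331 in replicate 2, and with 4569 bp it was the longest of the 8. At Pou3f3, the interval (chr1:42693965-42696928) had 2444 and 2541 counts, or 841 ± 22.7 normalised counts per kb (SD, n = 2). At Pou3f1 (chr4:124656661-124659523) there were 1777 and 1766 counts, a density of 619 ± 3.07 (SD, n = 2). Pou3f2 thus held the most counts and the densest promoter of the family. Pou3f4 (chrX:110814132-110815138) had the fewest counts, 505 and 508. Genes of the X chromosome with a TSS interval had a median promoter density of 519, against 897 on the autosomes, so that Pou3f4 stood near the median of its own chromosome.

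Among the Zic genes, Zic4 (chr9:91361607-91362522) had 647 and 673 counts and 721 ± 19.7 normalised counts per kb (SD, n = 2), the highest density of the 4. This rank rests on the outermost annotated start, and with every transcript start Zic4 had 398, the lowest of all 8 genes. Zic2 (chr14:122473835-122476707) had 1955 and 1740 counts and 643 ± 53.3. Zic5 (chr14:122463352-122465838) had 1539 and 1459 counts and 603 ± 23.1. Zic1 (chr9:91364309-91366321) had 1209 and 1164 counts and 589 ± 16.2 (SD, n = 2). In the order of promoter density by the outermost start, the replicate values of Pou3f2, Pou3f3 and Zic4 did not overlap those of their neighbours, and Pou3f4 was the lowest. With every transcript start, Zic4 moved from the third place to below Pou3f4. The replicate values of Zic2 and Pou3f1 overlapped, as did those of Pou3f1 and Zic5 and of Zic5 and Zic1, so neighbours among these 4 genes were not separated. With 2 values a side, the smallest p that a two-sided exact permutation test allows is 0.333, and no test of this order was made.

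**Figure D1:**
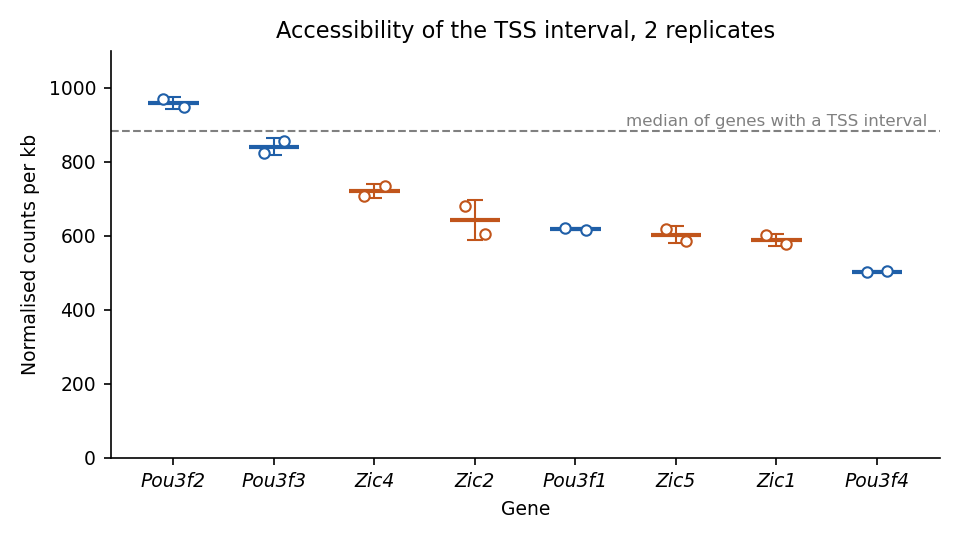
Accessibility of the TSS interval of each gene in normalised counts per kb. Open circles are the 2 replicates, thick lines their mean and bars 1 SD; Pou3f genes are blue and Zic genes orange. Pou3f2 sits above the dashed median of 884 for genes with a TSS interval, and the other 7 genes sit below it.

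The sequence upstream of these starts is shown because most of it lies within the accessible TSS intervals. RefSeq promoter windows (GRCm38.p6, 250 bases before to 50 after a start) were found for 6 of the 8 genes. The CCAAT box, a promoter element bound by the NF-Y complex, was searched as CCAAT on both strands. It was present in 4 of the 6 windows, those of Pou3f2, Pou3f3, Pou3f4 and Zic1, and in 37.4% of all 32851 windows. A TATA box, searched as TATAAA, was present in 0 of the 6, against 13.6% of all windows. The part of each window upstream of any annotated exon of a coding gene follows on the strand of the gene, with CCAAT or its reverse complement in capitals.

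Pou3f2 (chr4:22488367-22488616, minus strand): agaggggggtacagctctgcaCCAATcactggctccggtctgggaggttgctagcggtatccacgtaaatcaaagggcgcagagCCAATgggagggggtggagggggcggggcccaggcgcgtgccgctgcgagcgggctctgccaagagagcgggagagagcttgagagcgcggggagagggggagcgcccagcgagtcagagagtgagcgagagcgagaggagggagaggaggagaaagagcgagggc
Pou3f3 (chr1:42695518-42695767, plus strand): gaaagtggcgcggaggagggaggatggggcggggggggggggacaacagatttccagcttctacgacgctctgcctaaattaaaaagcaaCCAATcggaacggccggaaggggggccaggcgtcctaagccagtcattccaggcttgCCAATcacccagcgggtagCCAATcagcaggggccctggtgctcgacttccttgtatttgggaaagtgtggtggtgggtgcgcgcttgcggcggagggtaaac
Pou3f4 (chrX:110814129-110814279, plus strand): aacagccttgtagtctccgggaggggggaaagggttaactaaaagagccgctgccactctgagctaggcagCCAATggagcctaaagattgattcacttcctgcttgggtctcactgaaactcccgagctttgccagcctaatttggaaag
Zic1 (chr9:91365811-91366018, minus strand): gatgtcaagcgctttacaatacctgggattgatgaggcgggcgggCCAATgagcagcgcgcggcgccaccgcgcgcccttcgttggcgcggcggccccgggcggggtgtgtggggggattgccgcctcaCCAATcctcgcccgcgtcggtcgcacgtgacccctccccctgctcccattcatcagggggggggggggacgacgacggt
Zic5 (chr14:122465678-122465908, minus strand): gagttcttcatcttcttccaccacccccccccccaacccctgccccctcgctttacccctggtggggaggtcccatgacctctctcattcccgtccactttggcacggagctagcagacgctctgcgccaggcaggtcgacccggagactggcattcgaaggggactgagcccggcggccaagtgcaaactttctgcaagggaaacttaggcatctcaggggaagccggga

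Pou3f3 had 3 matches in the printed stretch, Pou3f2 and Zic1 had 2 each and Pou3f4 had 1. The whole RefSeq window of Pou3f2, Pou3f3 and Zic1 lay inside the TSS interval, as did 297 of 300 bases for Pou3f4 and 230 for Zic5. The Zic4 window is different and is described with its locus.

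Away from the promoters, 107 intervals were distal. Their median density was 180 ± 0.185 normalised counts per kb (SD, n = 2), against 126 ± 2.05 over all 107284 distal intervals. A mean of over 100 normalised counts was reached by 55 of the 107 (51.4%), against 32.4% of all distal intervals. Among all 115 intervals it was reached by 63 (54.8%), against 38.8%. They were also far from their genes. The median distance to the TSS was 302 kb, against 45.5 kb over all distal intervals, and 66 of the 107 (61.7%) were more than 100 kb away, against 30.2%. Distance is fixed in part by the space around a gene, and the stretch of DNA closer to a given start than to any other was 481 kb in the median for these genes and 47.7 kb for all genes. Relative to this space the intervals were sparser than average, with 2.82 per 100 kb against 4.39.

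**Figure D2:**
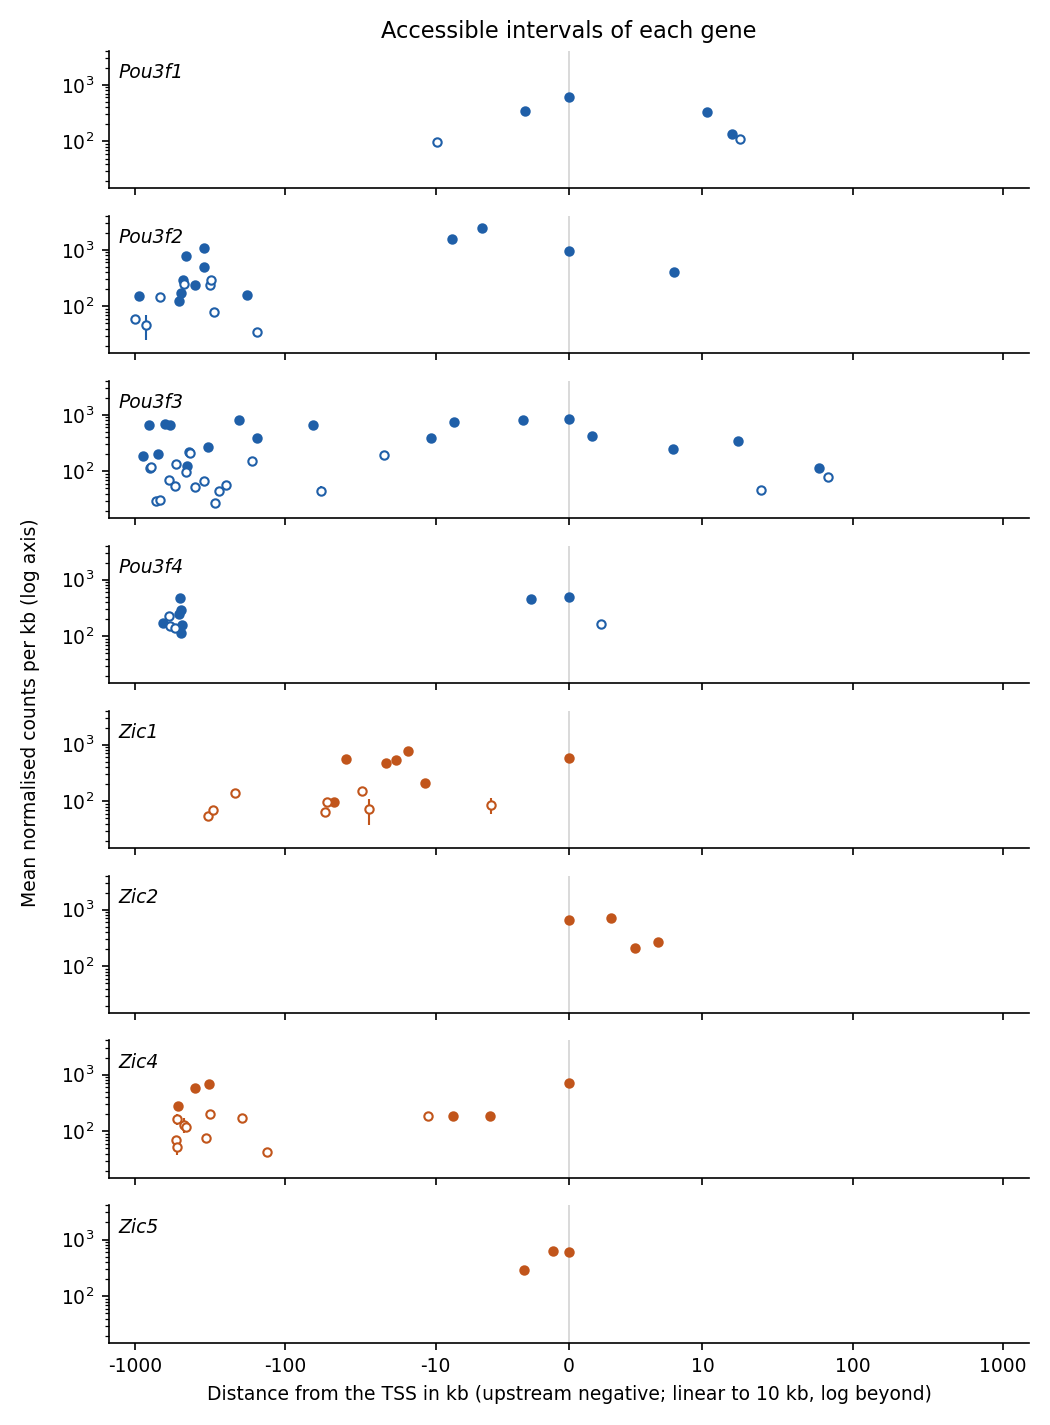
Distance of each accessible interval from the TSS of its gene in kb, with upstream negative and the axis linear to 10 kb and logarithmic beyond, against its mean normalised counts per kb on a log axis. Filled points have a mean normalised count over 100, open points do not, and vertical lines span the 2 replicates. Pou3f2, Pou3f3, Pou3f4 and Zic4 have groups of intervals over 100 kb upstream, and Zic2 and Zic5 have none beyond 6.69 kb. The starts of Zic2 and Zic5 are nearest for only 12.45 and 12.16 kb of DNA, so no remote interval could be assigned to them.

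The Pou3f2 locus held the most counts of the 8. Its 21 intervals summed to 14416 normalised counts in replicate 1 and 14527 in replicate 2, more than at 99.85% of protein-coding genes. This sum was not scaled by the stretch nearest to the start, which was 1069.5 kb at Pou3f2 against a median of 47.7 kb for all genes. A compact group lay just upstream of the gene. An intergenic interval 6.55 kb upstream (chr4:22494919-22495388) had 1159 and 1147 counts over only 470 bp, and its 2453 ± 19.5 normalised counts per kb (SD, n = 2) exceeded the density of 99.9% of distal intervals and that of the Pou3f2 promoter itself. A second, 8.74 kb upstream (chr4:22497103-22498784), had 2597 and 2686 counts and 1570.4 ± 36.5 (SD, n = 2). Together with the interval 7.88 kb downstream, these intervals within 10 kb held 36.1% ± 0.501 of the counts of the gene, more than the 30.3% ± 0.661 in the TSS interval (SD, n = 2).

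A further 17 Pou3f2 intervals lay over 100 kb upstream and held 33.7% ± 0.159 of the counts (SD, n = 2). The most accessible of these, 347 kb upstream (chr4:22835248-22837220), had 2142 and 2128 counts, and its density of 1082 ± 5.64 (SD, n = 2) was also above that of the promoter. Another, 458 kb upstream (chr4:22946274-22947413), had 892 and 846 counts and 762 ± 29.0 (SD, n = 2). No interval lay between 10 and 100 kb from this start. The most remote was 1002 kb upstream, with 73 and 90 counts. All but 1 of these remote sites were intergenic. They lie in a stretch of 1069.5 kb where Pou3f2 has the nearest coding start, and which gene they act on was not measured.

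Pou3f3 had the most intervals, 38, a number reached or exceeded by 246 of the 21938 genes. They summed to 12721 and 12917 normalised counts. Single distal sites ranged from 27.2 to 807 normalised counts per kb. The TSS interval held 19.4% ± 0.314 of the counts, intervals within 10 kb 19.9% ± 0.706, those at 10 to 100 kb 19.0% ± 0.0279 and those beyond 100 kb 41.7% ± 0.420 (SD, n = 2). The densest distal site, 3.44 kb upstream in an intron of the long noncoding RNA gene Pantr1 (chr1:42691308-42692326), had 826 and 819 counts and 807 ± 5.32 normalised counts per kb. The next, 204 kb upstream (chr1:42490952-42492102), had 904 and 949 counts and 805 ± 27.2, and one 8.62 kb upstream, again in Pantr1 (chr1:42686063-42687147), had 839 and 790 counts and 751 ± 32.4 (SD, n = 2). The replicate values of the first pair of sites overlapped, those of the third lay below both, and all 3 were lower than the promoter in the mean. A broad intergenic interval 587 kb upstream (chr1:42106576-42108888), chosen after its values were seen, carried the most counts of any distal interval of Pou3f3, 1513 and 1552. Of the 37 distal intervals, 31 lay upstream.

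The protein-coding genes most like Pou3f3 in the number of intervals, with ties settled by promoter density, were Kazn (905 ± 13.0 normalised counts per kb), Negr1 (969 ± 14.5) and Ajap1 (721 ± 14.6; SD, n = 2 each), each with 38. In all, 17 genes had 38 intervals. With 1 condition there is no profile across samples to compare.

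Pou3f4 had 12 intervals, and most of its counts came from far away. Of the 11 distal ones, 9 formed a group of 173 kb (chrX:110154091-110326601) that began 488 kb upstream and ended at 659 kb. The group had 1557 and 1621 counts in all, or 67.0% ± 0.00844 of the normalised counts of the gene (SD, n = 2). Its densest member, 505 kb upstream (chrX:110307612-110309049), had 655 and 724 counts and 479.5 ± 33.7 normalised counts per kb, beside 503 ± 1.82 at the promoter. An interval 2.86 kb upstream (chrX:110810936-110811422) had 209 and 230 counts and 451 ± 30.2 (SD, n = 2). No interval was found between 2.86 and 488 kb upstream. The third densest, 494 kb upstream, had 113 and 122 counts and 289 ± 15.5 (SD, n = 2).

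Pou3f1 had the shortest stretch of its family. Its start was nearest for 41.4 kb, against 956.8 to 1069.5 kb at the other Pou3f genes. No remote interval could therefore be assigned to it. Pou3f1 had 6 intervals in this stretch, or 14.5 per 100 kb against 4.39 over all genes. The TSS interval held 62.7% ± 0.338 of its counts (SD, n = 2). A site 3.33 kb upstream (chr4:124652340-124653481), in an intron of the noncoding gene Gm2164, had 401 and 403 counts and 352 ± 1.04 normalised counts per kb. One 10.8 kb downstream (chr4:124667560-124668659) had 358 and 369 counts and 330.5 ± 6.88, and one 15.7 kb downstream had 140 and 146 counts and 137 ± 3.99 (SD, n = 2). These were less dense than the promoter in both replicates.

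**Figure D3:**
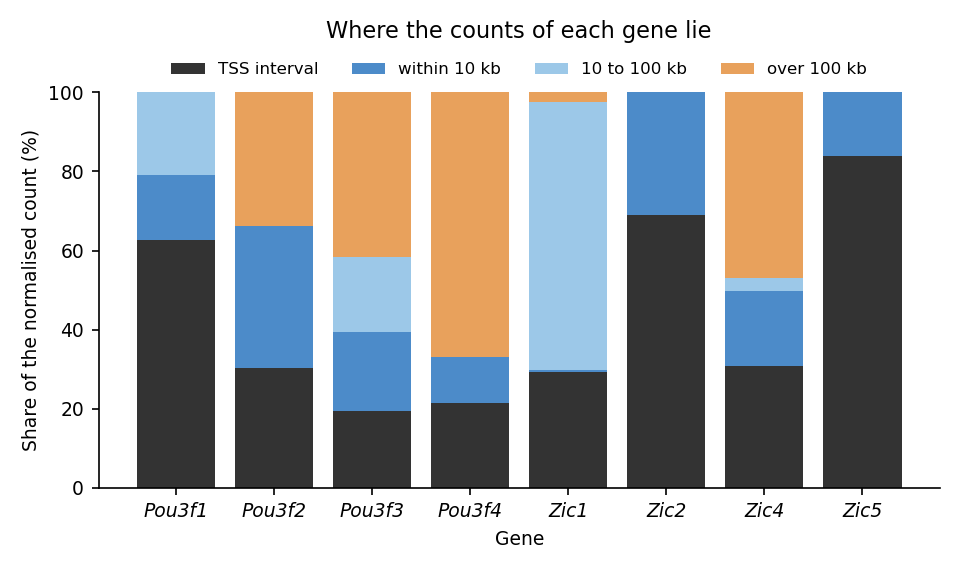
Share of the normalised counts of each gene, in percent and averaged over the 2 replicates, that lies in the TSS interval, in distal intervals within 10 kb, at 10 to 100 kb and over 100 kb from the TSS. The TSS interval holds from 19.4% at Pou3f3 to 83.9% at Zic5, and intervals over 100 kb away hold 67.0% at Pou3f4. The starts of Pou3f1, Zic2 and Zic5 are nearest for only 41.4, 12.45 and 12.16 kb, so none over 100 kb away could be assigned to them.

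Zic1 and Zic4 point away from each other, and some annotated transcripts of the 2 genes overlap, so the locus was taken as a whole. It held 31 intervals, of which 13 had a mean normalised count over 100, with 6324 and 6055 normalised counts in the replicates. By the outermost start of each gene, 15 intervals went to Zic1 and 16 to Zic4. With every annotated transcript start, 1 went to Zic1 and 30 to Zic4, although all 115 intervals stayed with the 8 genes. The split between the pair is thus a matter of annotation. The outermost Zic4 start lies within the Zic1 gene, 3.40 kb from the Zic1 start, and the TSS interval of Zic4 overlaps a coding exon of Zic1. Of the 12 annotated Zic4 transcripts, 9 begin outside any interval. The RefSeq promoter window of Zic4 (chr9:91368722-91369021) overlapped no interval and fell in a gap of 5.35 kb between accessible sites, which shows only that no site there passed peak calling. With every transcript start, the promoter density of Zic4 was 398 and not 721 normalised counts per kb.

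Of the normalised counts assigned to Zic1, 67.8% ± 0.917 lay 10 to 100 kb from its start (SD, n = 2), in and beyond the Zic4 gene. Measured from the Zic1 start, the densest distal interval was 15.3 kb away (chr9:91381137-91382075), with 736 and 689 counts and 759 ± 35.8 normalised counts per kb, in a noncoding exon. An interval 39.7 kb away in an intron of the noncoding gene Gm29478 (chr9:91405501-91406561) had 615 and 560 counts and 554 ± 37.0. One 18.3 kb away over a coding exon of Zic4 (chr9:91384111-91384522) had 236 and 206 counts and 536 ± 51.8 (SD, n = 2). Replicate 2 was lower at all 3. On the other side, 2 short intergenic intervals stood out, one 322 kb from the outermost Zic4 start (chr9:91040488-91040869) with 255 and 258 counts and 671.5 ± 5.17 normalised counts per kb, and one 398 kb away (chr9:90964139-90964418) with 146 and 174 counts and 571 ± 70.4. The third densest, 524 kb away, had 191 and 186 counts and 274 ± 5.31 (SD, n = 2).

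Zic2 and Zic5 start 9.76 kb apart and shared a short locus of 7 intervals, all with a mean normalised count over 100. The locus had 4640 and 4289 normalised counts, and the 2 TSS intervals held 74.9% ± 0.554 of them (SD, n = 2). For Zic2, the densest other interval covered a coding exon 3.16 kb downstream (chr14:122478591-122479112), with 384 and 355 counts and 708 ± 39.7 normalised counts per kb (SD, n = 2), and its replicate values just overlapped those of the promoter. Intervals 6.69 and 4.97 kb downstream had 265 ± 2.57 and 211 ± 5.34. For Zic5, an interval of 257 bp placed 1.19 kb upstream (chr14:122466867-122467123) had 177 and 146 counts and 628 ± 85.7, and the other, 3.39 kb upstream, had 116 and 135 counts and 289 ± 30.8 (SD, n = 2). Given their close neighbours, these genes had intervals at 32.1 and 24.7 per 100 kb, against 1.25 at Pou3f4.

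**Figure D4:**
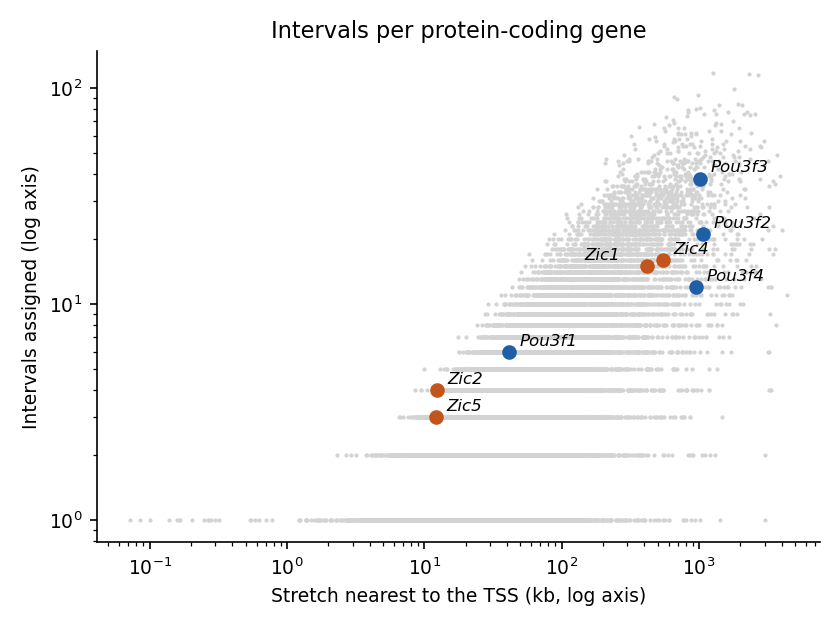
Number of intervals assigned to each protein-coding gene, on a log axis, against the stretch of DNA in kb for which its TSS is the nearest, also on a log axis. Grey points are all genes with an interval. Pou3f2, Pou3f3 and Pou3f4 have stretches of 957 to 1069.5 kb but between 12 and 38 intervals.

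Single distal sites had a median of 185 ± 0.303 normalised counts per kb over 73 Pou3f intervals and of 174 ± 7.95 over 34 Zic intervals (SD, n = 2), a difference that was not tested. Most of the counts were at the Pou3f genes, with 32487 ± 285 in sum against 10654 ± 438 at the Zic genes (SD, n = 2). Pou3f2 and Pou3f3 alone summed to 14472 ± 78.6 and 12819 ± 138. These sums were not scaled by the stretch nearest to each start. It was 1069.5, 1022.8, 956.8 and 41.4 kb at Pou3f2, Pou3f3, Pou3f4 and Pou3f1. At Zic1 with Zic4 it was 962.8 kb, and at Zic2 with Zic5 24.61 kb. By annotation, 73 of the 107 distal intervals were intergenic, 22 lay in introns of noncoding genes, 6 over noncoding exons, 4 over coding exons and 2 over untranslated regions. Of the 107, 3 (2.80%) were denser than the median TSS interval, near the 3.37% of all distal intervals, and all 3 belonged to Pou3f2.

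The central 200 bases of the densest distal interval that overlaps no annotated exon are shown for 5 genes, read from the plus strand of GRCm38. They show the most accessible distal site of each of these 5 genes outside exons. Capitals mark matches, on either strand, to the neural motifs searched below.

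Pou3f2, 6.55 kb upstream (chr4:22495054-22495253): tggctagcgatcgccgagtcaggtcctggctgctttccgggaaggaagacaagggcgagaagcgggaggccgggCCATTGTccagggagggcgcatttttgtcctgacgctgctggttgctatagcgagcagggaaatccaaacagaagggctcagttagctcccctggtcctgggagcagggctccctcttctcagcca
Pou3f3, 3.44 kb upstream (chr1:42691718-42691917): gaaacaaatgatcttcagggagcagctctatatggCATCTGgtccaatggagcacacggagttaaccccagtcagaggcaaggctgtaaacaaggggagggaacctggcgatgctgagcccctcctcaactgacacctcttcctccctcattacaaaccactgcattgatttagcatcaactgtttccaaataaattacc
Pou3f4, 505 kb upstream (chrX:110308231-110308430): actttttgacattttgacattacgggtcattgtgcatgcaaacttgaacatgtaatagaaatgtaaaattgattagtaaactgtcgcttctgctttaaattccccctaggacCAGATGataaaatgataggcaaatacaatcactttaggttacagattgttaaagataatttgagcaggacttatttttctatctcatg
Zic4, 322 kb upstream (chr9:91040579-91040778): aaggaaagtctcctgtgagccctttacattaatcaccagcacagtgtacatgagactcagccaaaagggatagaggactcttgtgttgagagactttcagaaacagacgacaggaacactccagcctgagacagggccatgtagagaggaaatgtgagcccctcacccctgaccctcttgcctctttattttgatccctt
Zic5, 1.19 kb upstream (chr14:122466896-122467095): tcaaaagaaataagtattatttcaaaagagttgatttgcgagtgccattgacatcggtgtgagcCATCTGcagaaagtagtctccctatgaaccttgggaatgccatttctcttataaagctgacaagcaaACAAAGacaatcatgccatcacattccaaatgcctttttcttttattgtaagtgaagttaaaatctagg

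The Pou3f2 site held 1 Sox motif, the Pou3f3 and Pou3f4 sites 1 E-box each, the Zic5 site 1 E-box and 1 Sox motif, and the Zic4 site none of those searched. The equivalent stretches at Pou3f1, Zic1 and Zic2, which are not printed, also held none. The sites differed in composition, from 32.5% GC at the Pou3f4 site to 61.0% at the Pou3f2 site.

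Short motifs were then counted in the central 300 bases of every interval on both strands. No motif contains another. The octamer of POU factors, ATGCAAAT, occurred in 3 of the 107 distal intervals (2.80%), against 2.22% of all distal intervals. The Sox motifs ACAAAG and ACAATGG occurred in 33 (30.8%) and 10 (9.35%), against 33.5% and 8.38%. Of the E-boxes bound by bHLH factors, CAGATG was found in 21 (19.6%) against 28.9% and CAGCTG in 25 (23.4%) against 22.9%. The homeodomain motif TAATTA was found in 11 (10.3%), against 7.66%. CAGCAGG, a core bound by Zic factors, was found in 5 (4.67%) against 13.1%, and GACCACC, part of the Gli site, in 1 (0.935%) against 3.22%. The median GC content of the distal intervals was 45.4%, against 48.6% for all, and its part in these shares was not tested. At the TSS intervals, CCAAT was found in 5 of 8, against 25.6% of all TSS intervals, and the octamer in 0 of 8 against 0.802%. These shares describe letters in a window and carry no test.

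Replicates were compared interval by interval with a two-sided exact binomial test, adjusted by Benjamini-Hochberg over all intervals. It called 0 of the 115 intervals, and 0% of all intervals, at an adjusted p under 0.01. At an unadjusted p under 0.05 there were 8 of 115, against 8.39% of all intervals. Of these, 6 were lower in replicate 2, against 4.32% of all intervals, and 2 were higher, against 4.07%. The lowest p was at the TSS interval of Zic2, lower in replicate 2 with a log2 ratio of -0.17 (exact binomial p = 0.000379, adjusted p = 0.198). By normalised counts, 54 of the 115 intervals were lower in replicate 2 and 61 higher, and the median log2 ratio over all intervals was 0. All 4 Zic2 intervals and 12 of the 15 Zic1 intervals were lower in replicate 2, and the summed ratio of replicate 2 to replicate 1 was 0.908 and 0.934, respectively. The ratio was 0.949 at Zic5 and 1.00 at Zic4, where 9 of 16 intervals were higher in replicate 2, and lay between 1.00 and 1.04 at the Pou3f genes. These sums and counts per gene were not tested. Where the mean exceeded 100 normalised counts, as in 63 intervals, the SD of the log2 ratio was 0.13, against 0.14 over all such intervals, and 0 differed over 2-fold.

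The 5 largest ratios in that set were at Pou3f4, Zic4 and Zic5. An interval 659 kb upstream of Pou3f4 (chrX:110154091-110154781) had 103 and 136 counts (log2 ratio 0.40), and one 511 kb upstream (chrX:110302769-110303297) had 146 and 113 (-0.37). At the Zic4 start, an interval 5.94 kb upstream (chr9:91355302-91356472) had 238 and 196 counts (-0.28), and the site 398 kb upstream had a log2 ratio of 0.25. The Zic5 interval 1.19 kb upstream had a log2 ratio of -0.28. At Pou3f4 and at Zic4 the direction differed between sites of the same gene.

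**Figure D5:**
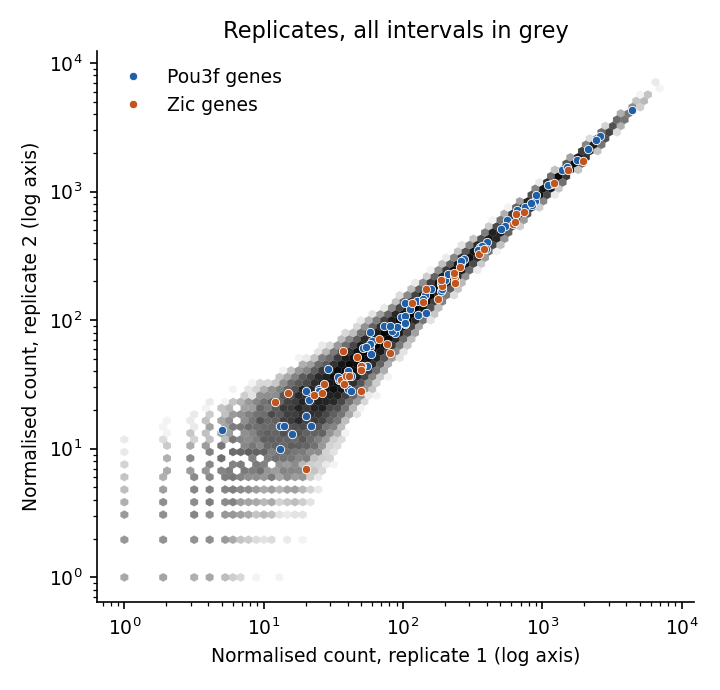
Normalised counts of replicate 2 against replicate 1, both on log axes, for all intervals with counts in both (grey, darker where more intervals fall) and for the intervals of the Pou3f (blue) and Zic (orange) genes. The 115 intervals lie along the diagonal within the cloud, from 5 to 4429 raw counts, and spread most at low counts.

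Relatives of both families were described for context. Of 9 other POU genes, 7 had an interval over their start, with densities up to 1393 ± 0.805 normalised counts per kb at Pou2f2, a gene of the broadly acting octamer-binding class. Pou2f1 of the same class had 723 ± 37.1, and Pou2f3, known from tuft cells and skin, had the lowest density of the 7 with 166 ± 6.84. Pou6f1 had 394 ± 3.36 (SD, n = 2). The sensory neuron factors Pou4f1, Pou4f2 and Pou4f3 had 470 ± 8.32, 539 ± 3.46 and 236 ± 20.9 (SD, n = 2), all below every Pou3f promoter except Pou4f2, which was above Pou3f4. Pou1f1 of the pituitary and Pou5f1 of pluripotent cells had no TSS interval. Of the 6 Gli and Glis genes, whose zinc fingers resemble those of Zic proteins, all had one, with densities from 922 ± 4.25 at Gli2 to 1424 ± 2.24 at Glis3 (SD, n = 2). Each of these was above every Zic promoter in both replicates. These lists had a median of 6 intervals per POU gene and 21.5 per Gli or Glis gene, against 13.5 for the 8 genes described here.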

How the data were processed

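ATAC-seq was performed on 2 replicates of 1 group. The authors deposited raw fragment counts per consensus interval, made, per the file headers, with featureCounts 2.0.1 on read pairs, where a fragment was counted in every interval it overlapped by a fraction of at least 0.2. Methods of the study describe the nf-core pipeline, mm10 and MACS peaks shared by at least 2 replicates. The intervals were built over 5 libraries, and 3 columns that belong to no sample of this series were not used.

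Normalised counts were obtained with size factors from DESeq2 (1.42.0). TSS were the 5′ ends of 21938 protein-coding genes in GENCODE M21 (GRCm38, the assembly of mm10), and 0 intervals ran past a chromosome end of the RefSeq sequence used. Distance was taken from the nearest interval edge, and ties went to the start nearest the midpoint. The deposited counts of each interval were compared between libraries with an exact binomial test. The test was tried on simulated counts that held counting error only. That trial could not show how the test behaves when replicates spread more widely. Log2 ratios used a pseudocount of 1. Named items were the 8 genes, their TSS intervals, their 3 densest distal intervals, the 5 largest replicate ratios and 2 lists of related genes, from which 1 gene was left out and is not reported here. Some intervals named beside these were picked once their values were known. The 8 genes and the lists were chosen with earlier results of these data known, although the assignment of intervals to genes used positions only. Alternatives used edgeR (4.0.16) TMM factors, total counts, other filters, pseudocounts and TSS definitions, and single replicates. Python 3.11.15, scipy 1.17.1 and pandas 2.3.3 were used.

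The binomial test compares 1 count per library and has no term for wider spread between replicates, so it covers counting error only. Over all intervals, 8.39% had an unadjusted exact binomial p under 0.05, above the nominal share of 0.05. Fragments carried no molecular identifiers, and the part of amplified copies in the counts was not tested. At the lowest counts, 5 in a replicate, single intervals are imprecise.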

Additional observations from a re-analysis of the deposited data

How the results depend on the processing

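The number of 115 intervals was the same with every transcript start and with the interval midpoint, was 114 with a mean normalised count of at least 10, and was 49 within 100 kb, where remote intervals are removed by construction. The number with a mean over 100 normalised counts was 63 under TMM factors and every transcript start, and 63 to 64 without one replicate. No interval of the 8 genes was called different between replicates under TMM factors, total counts or the filter, although TMM called 6 among all intervals. The median distal density of 180 moved to 183 with the filter of at least 10 and to 177 with every transcript start, and lay between 179.9 and 180.2 without one replicate. The promoter density of Zic4 fell from 721 to 398 with every transcript start, an alternative chosen after the data were seen, because a weaker second interval is then added; the other 7 promoters kept their value. The SD of the log2 ratio, 0.30, was 0.22 with a pseudocount of 10 and 0.13 for intervals with a mean over 100. No paired analysis was possible because a single group leaves nothing to pair. Depth limits the weak intervals, where the replicates spread most.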

Other observations

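Noncoding transcripts began inside 8 of the 115 intervals. In 4 cases this was the TSS interval of the gene itself, where Gm2164 starts at Pou3f1, Gm30731 at Pou3f2, Pantr1 and AC122898.1 at Pou3f3, and 2610035F20Rik at Zic2. In the other 4 cases the start was distal. Gm37047 starts in the interval 204 kb upstream of Pou3f3, and Pantr2, a noncoding gene of the same locus, starts in an interval 17.3 kb downstream with 643 and 669 counts (343 ± 9.42 normalised counts per kb; SD, n = 2). Gm37477 starts in the interval 15.3 kb from Zic1, and A730094K22Rik in one 11.2 kb from the outermost Zic4 start with 81 and 56 counts (184 ± 47.6; SD, n = 2). ATAC-seq has no strand, so accessibility of the coding and the noncoding start of a shared interval cannot be told apart.

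The TSS intervals of the 8 genes had a median ratio of observed to expected CpG of 0.756, against 0.698 over all TSS intervals. The ratio ran from 0.598 at Zic4 to 0.903 at Pou3f1, and Pou3f2 (0.664), Pou3f4 (0.604) and Zic4 lay below the median of all. These intervals had from 58.3% GC at Pou3f3 to 70.7% at Pou3f1. The distal intervals had a median ratio of 0.212, against 0.211 over all distal intervals. Of the 28 pairs of TSS intervals, 10 shared a match by BLAST, the longest between Zic1 and Zic2 with 640 bases at 67.7% identity and the closest between Pou3f2 and Pou3f3 with 64 bases at 89.1%. Some matches joined a Pou3f to a Zic gene, as between Pou3f2 and Zic1 with 76 bases at 85.5%. Every TSS interval except that of Pou3f3 overlaps a coding exon, and neither coding nor low-complexity sequence was masked. These values carry no test.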
